A study of Mus musculus with 2 samples.

Results

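This account covers 8 genes of mechanical and acid sensing in dorsal root ganglion (DRG) sensory neurons, namely Piezo1, Piezo2, Stoml3, Asic1, Asic2, Asic3, Tmem63b and Tmem120a. They were found by their symbols among the 24411 genes of the deposited expression files and occupied 10 of the 35034 RefSeq transcript rows. Asic1 and Asic2 had a pair of rows each, and the other 6 genes had a single row. RNA was sequenced from DRG neuron preparations of male C57BL/6J mice, which carried no transgene. The mice were 6 to 8 weeks old when purchased, before the injections, and their age at harvest is not given. The alum-injected group received intraperitoneal alum, an aluminium salt adjuvant, at 50% in saline, and the alum + KLH-immunized group received the same alum with keyhole limpet hemocyanin (KLH), a foreign mollusc protein. Both groups were injected on days 0 and 14, and thoracic and lumbar DRGs were taken 14 days after the second injection, digested, freed of debris over albumin and depleted of B lymphocytes with beads. The label of the control library names it both naïve and alum alone, and it is treated here as alum-injected, as the study's methods describe. Each group was 1 library made from the pooled neurons of 10 mice, named below the alum pool and the alum + KLH pool, so there is no measure of the spread between mice, no test was possible and no difference below has a replicate check.

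Values are TPM, a relative abundance per length of transcript, which adds up to the same sum in each library, and a gene total is the sum of its rows. Because TPM is per length, levels of different genes can be set beside each other. A gene was counted as detected above 3 TPM, the study's own threshold. TPM does not give the number of reads behind a value. The tissue label was checked against marker genes: all 11 pan-neuronal markers were above 3 TPM in both pools, and 0 of 9 macrophage markers were. Glia were also present, with 6 of 6 satellite glia markers and 6 of 8 Schwann cell markers above 3 TPM in both pools, and their part in the values below was not tested. Gene totals above 3 TPM in either pool had a Pearson correlation of 0.981 between the pools on the log2(TPM + 1) scale, across genes, which are not replicates.

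Piezo proteins are very large channels that open when the membrane is stretched or indented. Piezo2 carries most of the sense of light touch and limb position in mammals, and Piezo1 acts mainly in blood vessels and other non-neuronal tissue. Stomatin-like protein 3, the product of Stoml3, binds Piezo channels and raises their sensitivity to force in touch neurons. Acid-sensing ion channels (ASICs) are sodium channels built of ASIC subunits that open when protons accumulate outside the cell, as in inflamed or ischaemic tissue, and they have also been linked to touch. TMEM63B belongs to a family of channels gated by membrane tension or osmotic swelling. TMEM120A, also known as TACAN, was proposed as a mechanosensitive channel of nociceptors, a role that is disputed.

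Asic1 and Asic2 each give rise to a pair of subunits that differ at their start, because transcription begins at different first exons and the coding exons after the junction are shared. The coding bases where the subunits part are shown here to tell them apart, from GENCODE M21 transcripts (GRCm38, the assembly of mm10) that its table pairs with the RefSeq rows. Capitals mark the last 30 bases of the exon that belongs to that transcript alone, and lower case the first 30 bases of the shared exon that follows. All 60 bases of each are coding sequence.
ASIC1a: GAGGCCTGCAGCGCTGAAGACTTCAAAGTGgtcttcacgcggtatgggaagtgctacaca
ASIC1b: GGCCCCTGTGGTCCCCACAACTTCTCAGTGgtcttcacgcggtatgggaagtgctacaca
ASIC2a: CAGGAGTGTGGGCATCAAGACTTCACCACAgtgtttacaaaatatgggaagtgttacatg
ASIC2b: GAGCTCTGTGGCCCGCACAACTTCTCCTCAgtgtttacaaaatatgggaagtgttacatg
The capitals lie at chr15:99673034-99673063 for ASIC1a and chr15:99692998-99693027 for ASIC1b, both on the plus strand, before the shared bases at chr15:99694694-99694723. Those of Asic2 lie on the minus strand at chr11:81967630-81967659 for ASIC2a and chr11:81151758-81151787 for ASIC2b, before the shared bases at chr11:80971585-80971614. The stretch of coding sequence before the junction made up 35.4% of the ASIC1a, 39.2% of the ASIC1b, 36.1% of the ASIC2a and 41.9% of the ASIC2b reading frame, which encode 526, 559, 512 and 563 residues.

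The 8 genes formed a steep order of levels that was the same in both pools. Piezo2 was by far the most abundant, Asic2 followed, Asic3, Tmem63b, Asic1 and Tmem120a lay between 6.63 and 21.5 TPM, and Piezo1 and Stoml3 were close to 0. Thus 6 of the 8 genes were above 3 TPM in both pools, a threshold that 46.9% of all genes passed in the alum pool and 46.3% in the other, and the other 2 were below 1 TPM in both. In the step from Asic3 to Tmem63b, the gap of 0.337 TPM in the alum pool was smaller than the 2.42 TPM by which Asic3 itself differed between the pools, so these neighbours were not separated. The gap of 0.0304 TPM between Piezo1 and Stoml3 in that pool was likewise smaller than the difference of 0.0355 TPM in Piezo1 between the pools. The remaining steps were wider than the differences between the pools, though that from Asic1 to Tmem120a turned round when only the highest row of each gene was used.

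**Figure D1:**
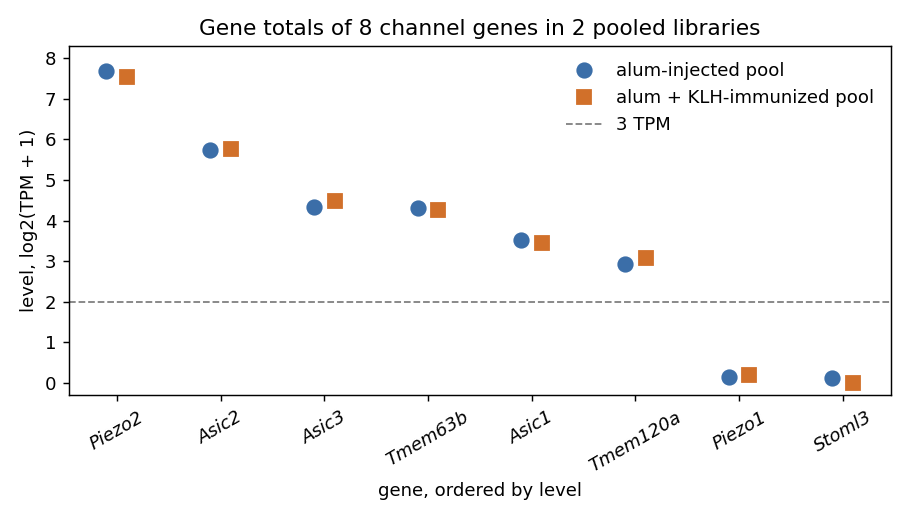
Level of the 8 genes as log2(TPM + 1) of the gene total (vertical axis) in the alum pool (circles) and the alum + KLH pool (squares), with 1 library per group and no error bars. The genes are ordered by level, 6 lie above the dashed line at 3 TPM, and the 2 symbols of each gene lie close together compared with the steps between most genes.

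Piezo2 (chromosome 18, 63010213 to 63387183 of GRCm38, minus strand) was at 204 TPM in the alum pool and 186 TPM with KLH. Only 4.24% and 4.70% of all genes had a higher total in these pools. Its level was 3.87 times that of Asic2, the next of the 8 genes, in the first pool and 3.48 times in the second. Piezo2 was also above the 3 ASIC genes combined, by 2.48 and 2.19 times. The single row for the gene, NM_001039485, spans 54 exons and 10724 bases. Of its 31-base words, kallisto's default word length, 0.0842% occur in annotated transcripts of another gene. The log2 ratio of alum + KLH over alum, with 1 TPM added to both, was -0.13, and the TPM itself differed by -8.81%. Among the 500 genes nearest in level the SD of this ratio was 0.21, which describes how far genes at this level differ between the 2 libraries and not an error between mice.

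Genes used as markers of the neurons that use Piezo2 for touch and body position were read as well. Not all of them belong to these neurons alone, Ret being an example. Of 13 markers of low-threshold mechanoreceptors and proprioceptors, 9 were above 3 TPM in each pool. Among them Ntrk2, the BDNF receptor of rapidly adapting touch neurons, was at 94.9 and 95.8 TPM, and Ntrk3, the receptor of proprioceptors and slowly adapting touch neurons, at 29.1 and 28.0 TPM. The calcium buffer gene Pvalb, a proprioceptor marker, was at 80.4 and 114 TPM. The transcription factor gene Etv1, needed by proprioceptors, was at 173 and 232 TPM, Maf at 40.4 and 47.8 TPM, and Mafa was listed at 0 in both. Ret, a receptor gene of touch neurons and other sensory neurons, was the highest of the 13 at 271 and 256 TPM. Calb1 was at 198 and 218 TPM, Slc17a8 at 20.1 and 17.0 TPM, and Th at 16.6 and 14.4 TPM. Below 3 TPM were also Runx3, at 2.83 and 2.48 TPM, Necab2, at 1.48 and 1.81 TPM, and Whrn, at 0.585 and 0.572 TPM. Of the 13 markers, 6 were higher and 6 lower with KLH, and the 9 above 3 TPM had a median log2 ratio of 0.013. The 13 summed to 927 TPM in the alum pool and 1028 TPM with KLH, a difference to which Etv1 and Pvalb gave the most. The 8 nociceptor markers, all above 3 TPM, summed to 8561 and 7970 TPM, of which Calca alone was 6177 and 5729 TPM. Of these 8, 7 were lower and 1 higher with KLH, beside 56.4% lower of all genes above 3 TPM in either pool. Their median log2 ratio was -0.18, and 0 were at least 1.5-fold apart. Whether the cell makeup of the pools bears on Piezo2 was not tested, and in pooled RNA fewer cells of a type and less RNA per cell cannot be told apart.

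Piezo1 (chromosome 8, 122481698 to 122551329, minus strand) was at 0.114 TPM in the alum pool and 0.149 TPM with KLH. It was exceeded by 70.7% and 68.9% of all genes. These levels were far below those of Piezo2, and the threshold of 3 TPM was not approached in either pool. Its log2 ratio was 0.045, beside a neighbour SD of 0.16. Piezo1 shares no 31-base word with Piezo2 or another of the 8 genes. Of the 8216 bases of its row, NM_001037298, 17.1% lie over exons of Ctu2, a gene of transfer RNA modification on the opposite strand, which was at 0.596 and 0.474 TPM. The libraries were stranded, but whether kallisto was run with the strand is not given in the sources used here.
Piezo1 is known from endothelial cells, and their markers were also low. Of 7 endothelial markers, 2 were above 3 TPM in each pool, and the 7 summed to 18.0 TPM in the alum pool and 13.5 TPM with KLH. Those above 3 TPM were Emcn, at 5.17 and 4.46 TPM, and Cdh5, at 3.79 and 3.15 TPM. The tight-junction gene Cldn5, the lowest of the 7, was at 0.142 TPM in the alum pool and listed at 0 with KLH. Markers of other vessel wall and connective tissue cells had a higher sum but a similarly low median. That median was 2.40 TPM in the alum pool and 2.32 TPM with KLH, beside 2.61 and 1.60 TPM for the endothelial markers. Of 9 mural cell and fibroblast markers, 4 were above 3 TPM in each pool. The 9 summed to 261 TPM in the alum pool and 251 TPM with KLH. Most of this came from Rgs5, at 172 and 162 TPM, and Dcn, at 63.8 and 62.6 TPM. Pdgfrb (1.87 and 1.68 TPM), Acta2 (1.07 and 0.661 TPM) and Myh11 (0.703 and 0.482 TPM) were below 3 TPM. The share of the Piezo1 level that comes from any of these cells was not tested.

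Stoml3 (chromosome 3, 53488653 to 53508502, plus strand) was at 0.0831 TPM in the alum pool and listed at 0 in the alum + KLH pool. No fold is given against a listed 0. Of 10 broadly expressed genes looked at, 0 were listed at 0 in either pool and the lowest was at 22.5 TPM, while 22.6% of all genes were listed at 0 in the alum + KLH pool. The single row, NM_153156, covers 7 exons and 1780 bases, and 0.924% of its 31-base words occur in other genes. Stoml3 was thus not detected above the threshold in these preparations, in which the touch neuron markers given above were measured.
Other stomatin-domain proteins were present. Stom, the stomatin gene itself, was at 56.6 and 49.4 TPM, Stoml2, a mitochondrial member, at 17.0 TPM in both pools, and Stoml1 at 11.1 and 8.56 TPM. These 3 relatives of Stoml3 were above 3 TPM in both pools.

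The 3 ASIC genes summed to 82.2 TPM in the alum pool and 84.9 TPM with KLH. Asic2 supplied 64.0% and 62.9% of this sum, Asic3 23.2% and 25.3%, and Asic1 12.8% and 11.8%. The order Asic2, Asic3, Asic1 was thus the same in both pools.
Asic2 (chromosome 11, 80880169 to 81968457, minus strand) was at 52.6 and 53.4 TPM. The log2 ratio, 0.022 against an SD of 0.12 among genes nearest in level, was negative when TPM was taken relative to Hprt or from the highest row alone. Asic3 (chromosome 5, 24413392 to 24417835, plus strand), whose product responds to the small drops in pH met in inflamed muscle and skin, was at 19.0 and 21.5 TPM. The log2 ratio, 0.16, lay within the SD of 0.18 at its level. Asic1 (chromosome 15, 99670368 to 99701130, plus strand), whose product takes part in injury of neurons by acid during ischaemia, was at 10.5 and 9.99 TPM. Its log2 ratio was -0.069, against an SD of 0.34, and was positive when only the highest row was used.

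The 2 rows of each gene divide these totals between transcripts, named here by the subunit they encode. ASIC2a, the subunit that opens to strong acid (NM_001034013), was at 50.64 TPM in the alum pool and 49.97 TPM in the other. It made up 96.3% and 93.5% of Asic2. ASIC2b (NM_007384), which does not form an acid-gated channel alone but joins with other ASIC subunits, was at 1.97 and 3.45 TPM, below the threshold in the first pool and above it in the second. These transcripts start 815136 bases apart, and the capitals above show how their last unshared bases differ.
ASIC1a (NM_009597), the widespread form of the subunit, was at 6.53 and 6.83 TPM. ASIC1b (NM_001289791), the form restricted largely to sensory neurons, was at 4.002 and 3.166 TPM. The ASIC1a row thus held 62.0% of Asic1 in the alum pool and 68.3% in the alum + KLH pool, and the ASIC1b start lies 21865 bases downstream. Placed in a single order, ASIC2a was the most abundant acid-sensing transcript, ASIC3 followed, ASIC1a was next, and ASIC1b and ASIC2b exchanged places between the pools.

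**Figure D2:**
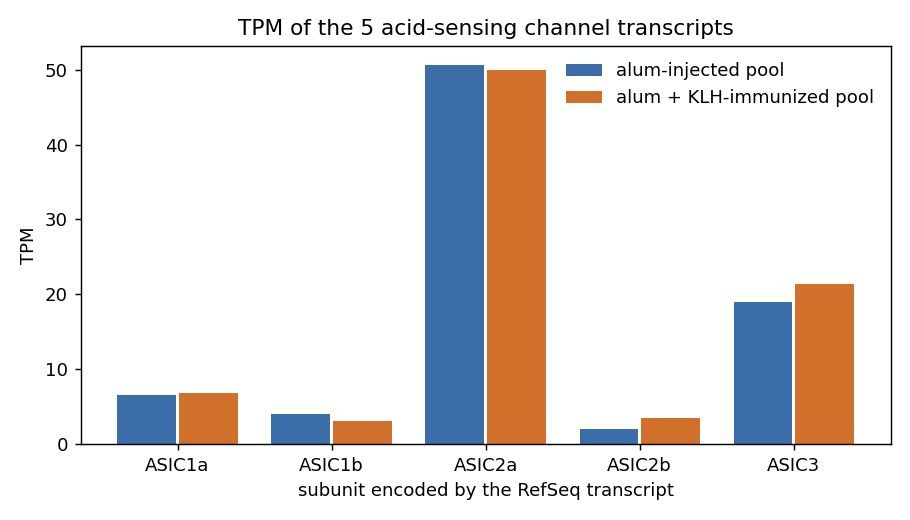
TPM (vertical axis, from 0) of the 5 transcripts of Asic1, Asic2 and Asic3, named by the subunit they encode, in the alum pool (left bars) and the alum + KLH pool (right bars), with 1 library per group and no error bars. ASIC2a stands at 50.64 and 49.97 TPM, above all others, and ASIC2b is the lowest bar in the alum pool at 1.97 TPM.

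The minor rows are the least certain of these values. ASIC2b had a log2 ratio of 0.58, a TPM ratio of 1.75, and the SD among the 500 rows nearest in level was 0.70. With 1 TPM added it lay just inside a 1.5-fold limit, past which 8.51% of the 14215 transcript rows above 3 TPM in either pool were found. ASIC1b had a log2 ratio of -0.26 beside an SD of 0.66. How kallisto divides reads between rows of a gene rests on the bases they do not share. Of 3406 words of 31 bases in the ASIC2b transcript, 1562 are absent from the ASIC2a transcript, and of 2670 in ASIC2a 826 are absent from ASIC2b. In Asic1 the corresponding counts were 3078 of 4075 for ASIC1a and 791 of 1788 for ASIC1b, whose transcripts are 4114 and 1818 bases long. The ASIC1a transcript ends at 99701128 and the ASIC1b transcript at 99699138. Some unshared ASIC1a words therefore lie past the ASIC1b end and not before the junction. Whether this moves the shares of Asic1 was not tested. Asic3 shared no word with any other annotated gene.

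Tmem63b (chromosome 17, 45660171 to 45686905, minus strand) was at 18.7 TPM in the alum pool and 18.2 TPM with KLH, a log2 ratio of -0.040 beside an SD of 0.31. Its relatives, TMEM63 channels of the same family, were on both sides of it. Tmem63c was at 30.9 and 28.0 TPM and Tmem63a at 2.97 and 3.15 TPM, so that Tmem63c was the most abundant of the family. Of the Tmem63b row, 8.77% of the bases lie over an antisense gene, Gm16172, which is not analysed here.
Tmem120a (chromosome 5, 135735485 to 135744448, minus strand) was at 6.63 and 7.49 TPM, and its log2 ratio of 0.15 was within the SD of 0.20. Tmem120b, its paralogue, was at 6.99 and 6.61 TPM. Tmem120a was below its paralogue in the alum pool and above it in the alum + KLH pool.

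The last comparison is that of the pools for the 8 genes together. Of the 6 genes above 3 TPM, 3 were higher and 3 lower in the alum + KLH pool, with log2 ratios from -0.13 for Piezo2 to 0.16 for Asic3 and a median of -0.0092. The median over all 11648 genes above 3 TPM in either pool was -0.020. None of the 6 was at least 2-fold apart, a limit passed by 1.64% of those genes, and 0 were at least 1.5-fold apart, a limit passed by 2.56%. A count of 0 among 6 genes is close to these shares and is no result about the channels. Without the filter on low values, where 0.905% of all genes passed 2-fold, the count was also 0, as it was for the 5 members above 10 TPM, where 0.872% passed. None of the 8 member rows above 3 TPM was 2-fold apart in this ratio, against 4.65% of the rows above 3 TPM. The signs of Asic1 and Asic2 depended on the setting as given above. The log2 ratio understates differences of low genes because of the added 1 TPM.

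**Figure D3:**
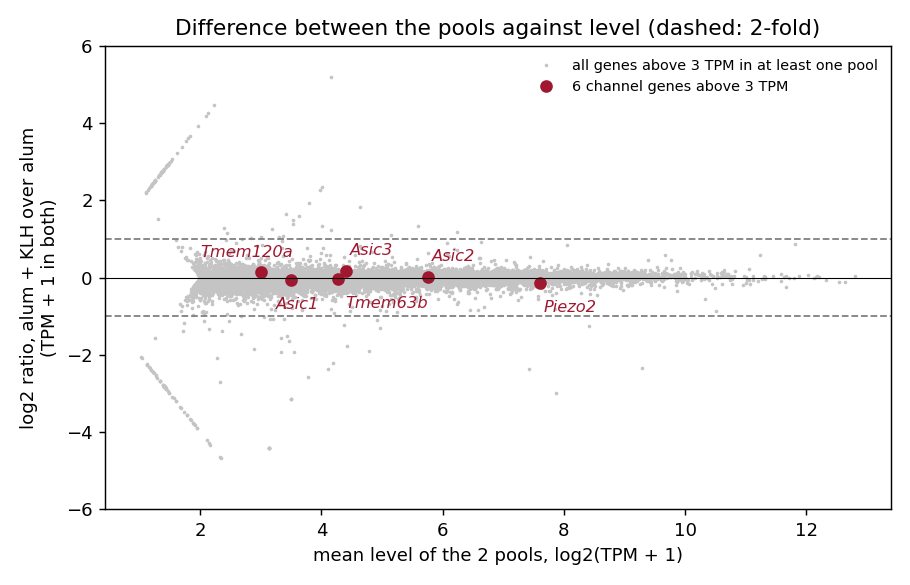
Log2 ratio of alum + KLH over alum, with 1 TPM added (vertical axis), against the mean log2(TPM + 1) of the pools (horizontal axis) for the 11648 genes above 3 TPM in either pool (grey) and the 6 channel genes among them (red). The 6 genes lie between -0.13 and 0.16, well inside the dashed lines at 2-fold.

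Other genes of mechanical and acid sensing were read from 8 lists of 47 genes in all. Of these, 24 were above 3 TPM in either pool, 14 of them lower and 10 higher in the alum + KLH pool, where 56.4% of all genes above 3 TPM were lower. None of the 24 was at least 1.5-fold apart, a limit passed by 2.56% of genes. Their median log2 ratio was -0.016. The other members of the epithelial sodium channel family to which ASICs belong, Asic4, Asic5, Scnn1a, Scnn1b and Scnn1g, were all below 3 TPM, with 0.198 TPM as the highest value.
Among proteins that bind or modulate Piezo channels, 6 of 7 were above 3 TPM in both pools. Tmem150c, which slows the closing of mechanically gated currents, was at 68.1 and 67.8 TPM, and Anxa6, an annexin that dampens Piezo2 currents, at 168 and 157 TPM. Mtmr2, a lipid phosphatase that restrains Piezo2, was at 155 TPM in both pools. Mdfic, which binds the Piezo pore, was at 8.13 and 8.35 TPM, and its relative Mdfi was listed at 0. The calcium pump gene Atp2a2, the highest Piezo partner listed, was at 396 and 410 TPM, above Piezo2. The next highest, Anxa6, lay below Piezo2. Anxa6 was also the listed gene nearest to Piezo2 over the 2 libraries, at a distance of 0.37 in log2(TPM + 1).
Of 6 proteins that bind ASICs, 4 were above 3 TPM, and 0 of these were at least 1.5-fold apart. All 4 were lower in the alum + KLH pool, beside 56.4% of all genes above 3 TPM in either pool. The rest of the 6, below 3 TPM, were lower too. S100a10, whose product carries ASIC1a to the membrane, was at 1136 and 1008 TPM, its partner Anxa2 at 651 and 579 TPM, and Pick1, whose product binds the tails of ASIC1 and ASIC2, at 4.83 and 4.59 TPM. The median log2 ratio of the 4 was -0.16.

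Acid and force also act on other channels of these neurons. Trpv1, the capsaicin and acid receptor, was at 72.6 and 73.6 TPM, above Asic2, the highest ASIC gene. Tmem206, which encodes the proton-activated chloride channel, was at 17.2 and 16.9 TPM and was the listed gene nearest to Tmem63b. The proton-sensing receptor genes Gpr4, Gpr65 and Gpr132 and the proton channel gene Otop1 were all below 3 TPM.
K2P potassium channels opened by stretch, or closed by acid, set the resting potential against which the cation channels above act. Kcnk2 (TREK-1) was at 13.0 and 13.9 TPM and Kcnk10 (TREK-2) at 10.4 and 11.3 TPM, and Kcnk10 was the listed gene nearest to Asic1. The acid-inhibited channel gene Kcnk3 (TASK-1) was at 4.86 and 5.08 TPM, whereas Kcnk4 (TRAAK) was at 1.36 and 0.814 TPM. In the TMC group, which includes the channel of inner ear hair cells, Tmc7 was the highest at 23.4 and 22.8 TPM and was nearest to Asic3. The hair cell genes Tmc1 and Tmc2 were at 1.26 and 1.16 TPM and at 0.660 and 0.615 TPM. The nearest listed genes were Stom for Asic2, Tmem120b for Tmem120a and Scnn1g for Stoml3, likeness here being no more than a similar level in 2 libraries.

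**Figure D4:**
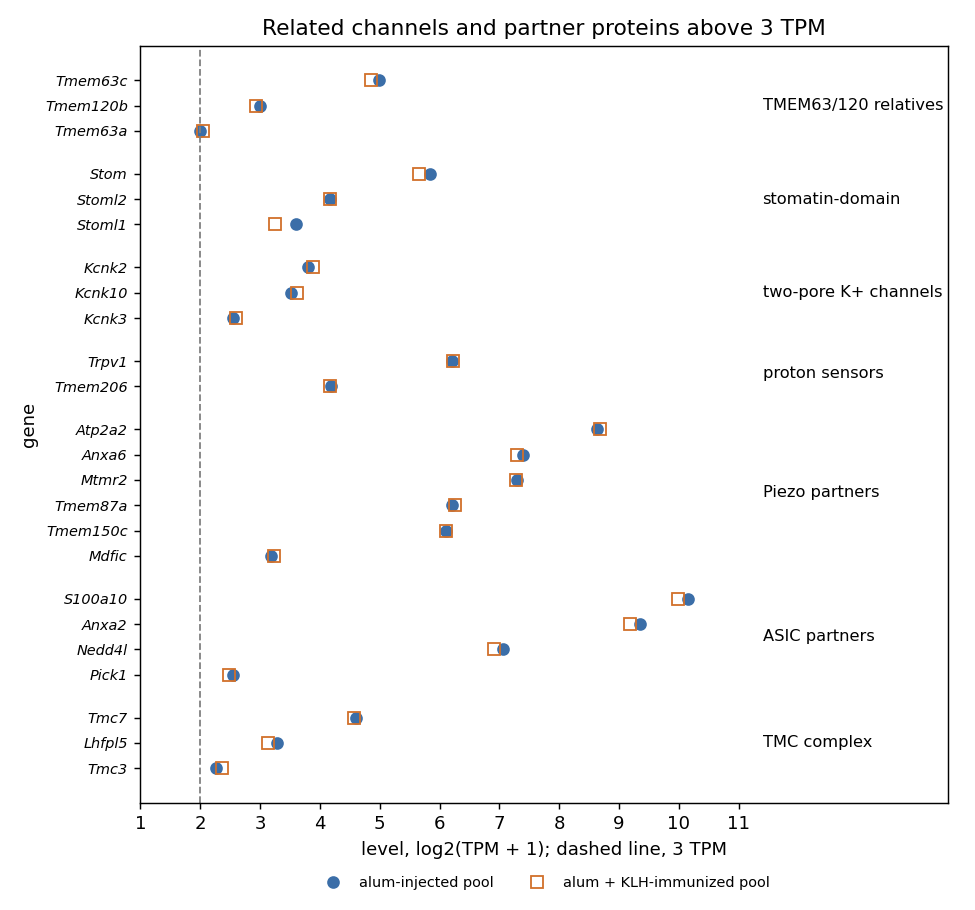
Level as log2(TPM + 1) (horizontal axis) of the 24 related channel and partner genes above 3 TPM in either pool, grouped by list, in the alum pool (filled circles) and the alum + KLH pool (open squares). The symbols of each gene nearly coincide, and the widest gap is that of Stoml1, at 11.1 and 8.56 TPM.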

How the data were processed

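Dorsal root ganglion neurons of 10 mice per group were pooled into 1 library per group. The authors prepared stranded mRNA libraries, trimmed paired-end reads with cutadapt and quantified them with kallisto (mm10, rows named by RefSeq), with no versions given in the sources used here, and deposited TPM per transcript. TPM keeps no read counts, so the reads behind each value are unknown and no interval or detection floor could be given. TPM was summed per gene symbol. Each difference is the log2 value of TPM plus 1 in the KLH pool less that in the alum pool, beside the SD over the 500 features nearest in mean level. Kallisto splits reads among transcripts of a gene, which moves single rows more than totals.

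The genes, the lists of related genes and cell markers and the alternatives were chosen with earlier results of these data known. Genes named are all 8 members and their rows, listed genes, and the listed channel gene nearest to each member. A few values and a sequence that these rules cover are not reported here. Pacc1 was found under its older symbol Tmem206. The 10 broadly expressed genes and alternatives for lists were added after the values were seen. Positions came from GENCODE M21 (GRCm38), and all 10 rows matched its RefSeq table. Its transcripts may differ from the authors' in length. Schwann cell, satellite glia, mural and fibroblast, and red blood cell markers were also read, and summed to 2194 and 2157, 1513 and 1397, 261 and 251, and 4.74 and 1.88 TPM. Python 3.11.15, numpy 2.4.6, pandas 2.3.3 and matplotlib 3.10.9 were used. Scripts were tested on simulated data.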

Additional observations from a re-analysis of the deposited data

How the results depend on the processing

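The alternatives were pseudocounts of 0.1 and 0.5 TPM, division by the median ratio over all detected genes (0.987), values relative to Hprt, the highest row of each gene and protein-coding rows only. Of 42 log2 ratios recomputed for the 7 members above 0 in both pools, 39 kept their sign and 0 passed 2-fold. The exceptions were Asic1 at 0.056 and Asic2 at -0.019 with the highest row, and Asic2 at -0.062 relative to Hprt. Piezo1 moved to 0.22 with 0.1 TPM added. With the highest row, the step from Tmem63b to Asic1 widened to 1.34 in log2(TPM + 1) and Asic1 came below Tmem120a (-0.068), since that alternative drops ASIC1b. The count of members past the limit was 0 under every alternative tried. The background count of 191 genes at least 2-fold apart was 298 at 1.5-fold and 74 above 10 TPM. With a threshold of 10 TPM, 5 members were detected with alum and 4 with alum + KLH, against 6. With settings chosen after seeing the data, the median log2 ratio of the proton sensors turned to 0.015 with the median ratio, and those of the Piezo partners and touch neuron markers to -0.064 and -0.071 relative to Hprt. Asic3 had the highest ratio of the detected members with 1 TPM added, and Tmem120a (0.17) passed it with 0.1 TPM. With no read counts and 1 library per group, the values of Piezo1, Stoml3 and ASIC2b are the least certain. No paired analysis was possible because each group has a single library.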
